A study of Mus musculus with 18 samples.

Results

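Genes of the axon guidance machinery were followed for changes of histone variant H3.3 in the mouse nucleus accumbens after social stress. They are the ephrin receptor genes Epha3, Epha4, Epha6 and Ephb1, the netrin receptor genes Dcc and Unc5d, the semaphorin gene Sema5a and the semaphorin co-receptor gene Nrp1. These 8 genes were chosen by their H3.3 counts, fold changes and p-values, since each is named in at least 1 of the authors' 2 deposited lists of differential H3.3 sites. Every listed gene body or promoter site of these genes was taken, which gave 12 of the 2300 sites in both lists. The same values are given below as descriptions and were not tested again.

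H3.3 ChIP-seq, which counts DNA fragments bound by an H3.3 antibody, was done on C57Bl/6J mice in 3 conditions. Susceptible mice had been defeated repeatedly by an aggressor (chronic social defeat), were classed by social interaction testing 48 h later, and met the aggressor again for 5 min before 55 min housed next to it. Acute stress mice were controls given the same single exposure. Control mice came straight from their home cage. The social interaction test at 48 h is recorded for the control and acute stress groups as well. All were killed at day 28, and each library pooled the bilateral tissue of 5 animals. These libraries hold no chronically defeated mice without the renewed stress, so the earlier defeat, the selection as susceptible and the re-exposure cannot be told apart. The susceptible list holds 3 susceptible and 2 control libraries, and the acute list 2 acute stress and 2 control libraries, of the 3 ChIP libraries that the labels give each condition. The sources used here do not say which labelled library stands at which place, and values follow the order of the lists. The lists have 18 sites with identical coordinates, and control reads matched at 18 of them, so the comparisons share their controls.

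Axon guidance receptors sit on growing axons and, in the adult brain, on synapses, and read attractive or repulsive cues. Ephrin receptors are receptor tyrosine kinases that bind ephrins on a neighbouring cell, so that both cells are signalled to. Netrin attracts axons through DCC and repels them through UNC5 receptors, and semaphorins act through plexins and neuropilins. H3.3 is an H3 variant whose deposition does not need DNA replication, and it goes on being exchanged in neurons, which do not divide.

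Depth was low at all 12 sites. A single read was worth 0.534 to 1.63 normalised counts, depending on the library, and the member sites held between 37 and 57 reads over all libraries of a list. In both lists a read was worth least in the second control library. Ratios per unit depth below use this value of a read, not the total depth of a library. Marker genes could not check the tissue, because only differential sites are listed. Of 32 markers of neurons, glia and vessels, 4 carried one, Foxp1, Aldh1l1, Pdgfra and Vwf, all lower in susceptible mice. Lower was the direction of 97.6% of all sites in that list, and 2.56% of all protein-coding genes had a lower susceptible site. In pooled tissue, fewer cells with H3.3 at a site and less H3.3 per cell cannot be told apart.

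All 12 sites lay inside gene bodies and none in a promoter. Of all gene body or promoter sites, most were in gene bodies too. They numbered 636 of 713 in the susceptible list and 481 of 539 in the acute list. The starts of the genes are shown here for 2 members, Epha6, which carries the site nearest to its start, and Ephb1, which has the highest count of the set. The 250 bases upstream of the start are given 5′ to 3′ from RefSeq (GRCm38.p6), both on the minus strand, at chr16:60605532-60605781 and chr9:102354694-102354943. Capitals mark the dinucleotide CG, which reads the same on both strands.
Epha6: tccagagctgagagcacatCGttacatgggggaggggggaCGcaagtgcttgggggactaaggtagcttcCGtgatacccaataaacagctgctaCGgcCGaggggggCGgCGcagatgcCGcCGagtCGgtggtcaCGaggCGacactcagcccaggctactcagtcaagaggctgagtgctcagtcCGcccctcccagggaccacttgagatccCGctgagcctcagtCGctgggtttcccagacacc
Ephb1: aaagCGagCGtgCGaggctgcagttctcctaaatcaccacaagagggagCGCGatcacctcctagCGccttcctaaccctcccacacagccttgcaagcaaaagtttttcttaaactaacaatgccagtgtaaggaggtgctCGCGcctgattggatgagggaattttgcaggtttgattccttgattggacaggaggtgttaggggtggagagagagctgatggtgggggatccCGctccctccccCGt
The Epha6 window holds 15 CG and the Ephb1 window 10, against a median of 6 over 32851 RefSeq promoters. As many CG as in Epha6 were found in 27.3% of promoters, and as many as in Ephb1 in 37.8%. Sequences of 6 of the 8 members were matched, and none of their windows overlapped a listed site of either comparison. The share of all promoters that overlap one was not computed. The nearest listed sites were 29.4 kb from the Epha6 start and 130 kb from the Ephb1 start.

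After acute stress, some sites in these genes were higher and others lower. There were 6 higher sites in the authors' deposited table, 1 each in Epha3, Epha4, Epha6, Ephb1, Dcc and Sema5a, and 3 lower sites, 2 in Epha6 and 1 in Dcc. Over the whole acute list 53.4% of sites were higher and 46.6% lower. In susceptible mice all 3 sites, in Epha6, Unc5d and Nrp1, were lower, as were 97.6% of all sites in that list, and 0 were higher, beside 2.41% of the list. At 12 of the 12 sites the values of the libraries did not overlap between the groups. That held for 99.8% of all listed susceptible sites and 100% of all listed acute sites, so it is shared by nearly every listed site.

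**Figure D1:**
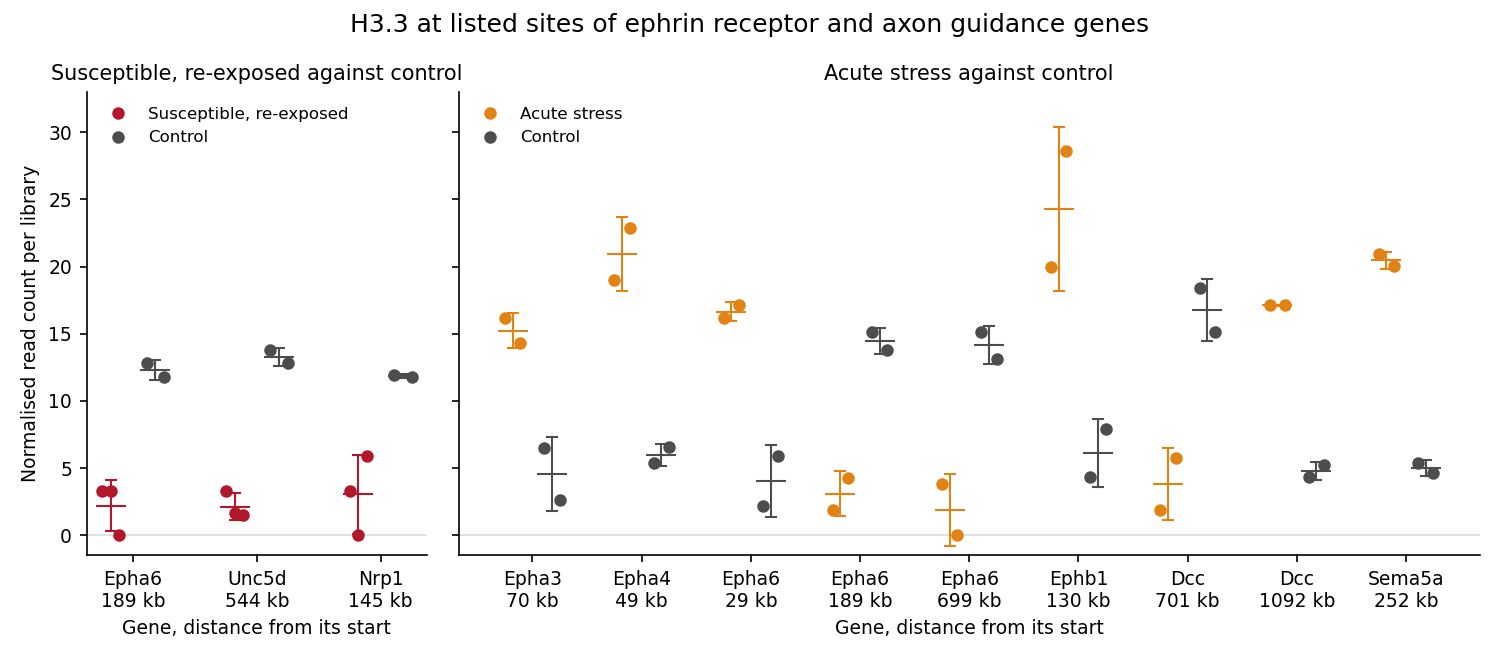
Normalised H3.3 read count in each library (points) at the 12 sites, with the group mean and SD (bars), for susceptible and control libraries on the left and acute stress and control libraries on the right. The 6 higher acute sites have 14.3 to 28.6 counts in the acute stress libraries and 2.16 to 7.88 in the control libraries, while at the lower sites of both panels the stress libraries hold 0 to 5.87 and the control libraries 11.8 to 18.4.

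Epha6, the longest of the ephrin receptor genes here at 969.5 kb, carried 4 of the 12 sites and was the one member with sites in both comparisons. Protein-coding genes with a gene body or promoter site numbered 936 over both lists and 452 in the acute list, and 560 had a lower susceptible site. Other genes thus had sites in both lists as well, but their share was not computed. The product of Epha6 binds the membrane-anchored ephrin-A ligands. The site that both comparisons share lies 188.7 kb from the start, 19.8% along the gene (mm10, chr16:60416676-60416975 in the susceptible list). It held 3.26, 3.31 and 0 normalised counts in susceptible libraries, against 12.9 and 11.8 in control libraries, or 2.19 ± 1.90 (SD, n = 3) against 12.3 ± 0.778 (SD, n = 2). Both control libraries were more than 3 times any susceptible one. These values rest on 6 susceptible and 36 control reads, a pooled ratio per unit depth of 0.197 with an exact Clopper-Pearson 95% interval of 0.0679 to 0.473. Such intervals cover counting error only. The acute list has the same stretch from 25 bp further in, and the 275 bp shared are 100% of the acute and 91.7% of the susceptible site. There it held 1.90 and 4.29 counts after acute stress, against 15.1 and 13.8 in controls, a pooled ratio of 0.200 (95% interval 0.0610 to 0.511). In the authors' deposited table the log2 fold change was -2.49 in susceptible mice (adjusted p = 0.00176) and -2.23 after acute stress (adjusted p = 0.0126). Both ratios are taken over the same control libraries, whose reads here were 14 and 22 in the susceptible list and 14 and 21 in the acute one. Both stress groups were low at this position, and the high value comes from the same pair of control libraries in each comparison.

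The other 2 Epha6 sites were listed for acute stress only and went opposite ways. Nearest to the start, at 29.4 kb (chr16:60575976-60576300), the count was 16.2 and 17.2 after acute stress and 2.16 and 5.91 in controls, a mean of 16.7 ± 0.700 against 4.04 ± 2.65 (SD, n = 2 each). At 698.9 kb (chr16:59906451-59906750) it was 3.80 and 0 after acute stress and 15.1 and 13.1 in controls, a mean of 1.90 ± 2.69 against 14.1 ± 1.41 (SD, n = 2 each). In the authors' deposited table the log2 fold change was 2.04 at 29.4 kb (adjusted p = 0.0126) and -2.89 at 698.9 kb (adjusted p = 0.0118). H3.3 was therefore listed as higher near the start and lower at the 2 deeper positions of the same gene, 159 kb and 669.5 kb away. Single libraries weigh on these sizes. The log2 ratio of means at 29.4 kb was 2.95 without the second control library and 1.49 without the first. At 698.9 kb it was -1.90 without the second acute stress library, and without the first no acute stress read remained. At 188.7 kb the acute value was -2.93 without the second acute stress library and -1.75 without the first. By the p of the authors' deposited table, the sites at 29.4 kb and 188.7 kb rank only 945 and 926 among the 1014 acute sites. The site at 698.9 kb ranks 493.

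**Figure D2:**
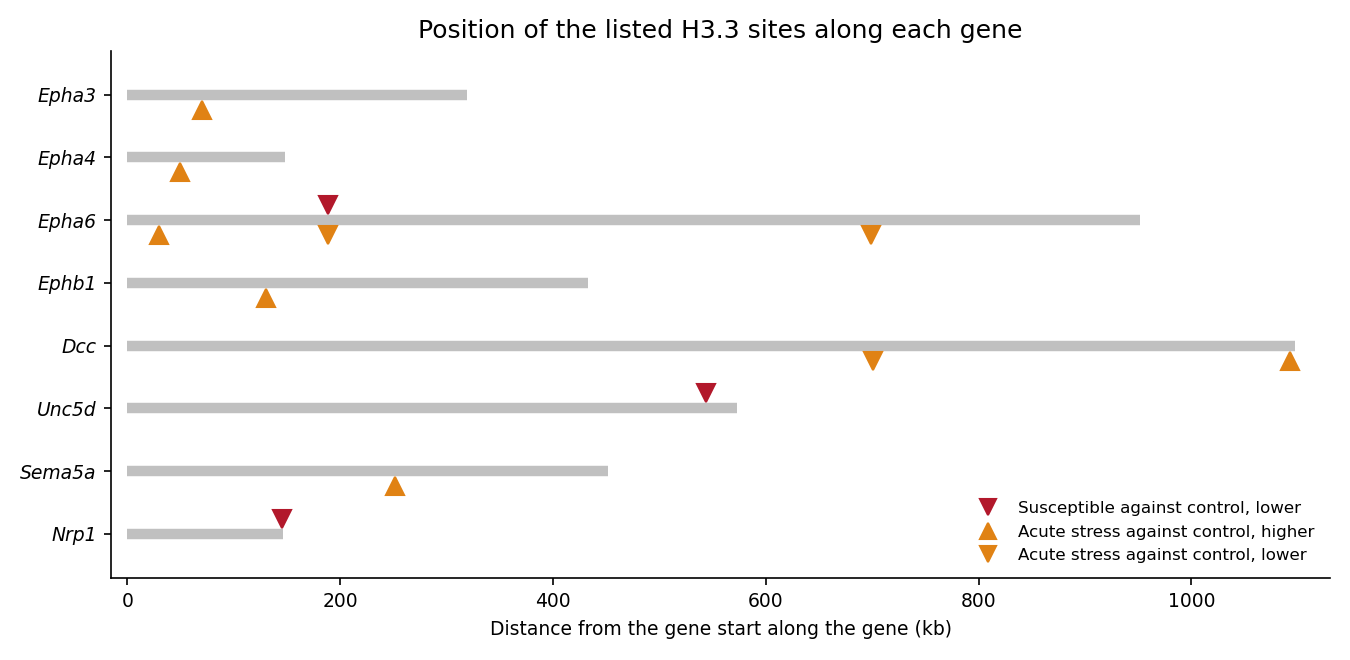
Each grey bar is a gene drawn to scale from its start (left) to its end, in kb along the deposited transcript, with the 12 listed H3.3 sites marked as triangles that point up for higher and down for lower. Epha6 and Dcc hold sites of both directions, and the red and orange triangles of Epha6 at 188.7 kb mark the position listed in both comparisons.

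The 3 other ephrin receptor genes each had a single site, higher after acute stress. Ephb1, whose product binds the transmembrane ephrin-B ligands, had the highest count of the set (chr9:102224476-102224900, 130 kb from the start). It was 20.0 and 28.6 after acute stress and 4.33 and 7.88 in controls, a mean of 24.3 ± 6.10 against 6.11 ± 2.51 (SD, n = 2 each). The acute stress libraries differed in normalised count but held 21 and 20 reads. The lower acute stress count was more than 2 times that of the higher control library. The 41 acute stress and 16 control reads at the Ephb1 site give a pooled ratio of 3.58 (95% interval 1.97 to 6.83).

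Epha4, a receptor that binds ephrins of both classes and is found on dendritic spines and axons, was at 19.0 and 22.9 after acute stress and 5.41 and 6.57 in controls (chr1:77465576-77466000, 49.3 kb from the start). The means were 20.9 ± 2.73 and 5.99 ± 0.820 (SD, n = 2 each), and the pooled ratio was 3.35 (95% interval 1.79 to 6.59). Epha3, an ephrin-A receptor, was at 16.2 and 14.3 after acute stress and 6.49 and 2.63 in controls (chr16:63793851-63794200, 70.1 kb from the start). Its control libraries differed from each other by more than 2 times, and the log2 ratio of means, 1.74 with all libraries, was 2.53 without the first of them and 1.23 without the second. The Epha3 site also stood closest to the list's limit, with p = 9.62e-05 in the authors' deposited table, whose largest listed p is 9.98e-05. Sites beyond that limit are not listed. Log2 fold changes in the authors' deposited table were 1.99 for Ephb1 (adjusted p = 0.0095), 1.81 for Epha4 (adjusted p = 0.0107) and 1.74 for Epha3 (adjusted p = 0.0138).

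Dcc, the receptor through which netrin attracts axons and which guides dopamine axons of the midbrain in development, is the longest of the 8 genes at 1098 kb. Its 2 acute sites went opposite ways, 391 kb apart. At 701 kb from the start (chr18:71649926-71650275) the count was 1.90 and 5.72 after acute stress and 18.4 and 15.1 in controls, a mean of 3.81 ± 2.70 against 16.8 ± 2.32 (SD, n = 2 each). At 1092 kb (chr18:71258576-71258900), 5.11 kb short of the end of the gene, it was 17.1 and 17.2 after acute stress and 4.33 and 5.26 in controls, a mean of 17.1 ± 0.0283 against 4.80 ± 0.658 (SD, n = 2 each). The distal site thus had close values within each group, on 30 acute stress and 12 control reads. At the 701 kb site the acute stress libraries differed by about 3 times, and the log2 ratio of means, -2.14 with all libraries, was -3.14 without the second of them and -1.55 without the first. Log2 fold changes in the authors' deposited table were -2.14 at 701 kb (adjusted p = 0.0104) and 1.84 at 1092 kb (adjusted p = 0.0118).

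A lower acute site lay just past the end of Dcc, 10.8 kb from the higher one (intergenic, chr18:71247776-71248025). It held 0.950 and 5.72 counts after acute stress and 17.3 and 13.8 in controls, and the authors' deposited table puts its log2 fold change at -2.22. Around the end of this gene, H3.3 was therefore listed in opposite directions at a pair of positions closer together than any pair of acute sites within a member. No susceptible site was listed in Dcc or within 500 kb of it.

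Unc5d, a receptor of the family that mediates repulsion from netrin, had 1 site, lower in susceptible mice (chr8:28675501-28675825). It lies 544 kb from the start, 94.9% along the gene. The count was 3.26, 1.66 and 1.47 in susceptible mice and 13.8 and 12.8 in controls, a mean of 2.13 ± 0.983 (SD, n = 3) against 13.3 ± 0.672 (SD, n = 2). All 3 susceptible libraries held reads here, which was not so at the Epha6 and Nrp1 sites. With 5 susceptible and 39 control reads, the pooled ratio was 0.152 (95% interval 0.0467 to 0.385). The log2 fold change in the authors' deposited table was -2.64 (adjusted p = 0.000874), and by that table's p the site ranks 70 among the 1286 susceptible sites. This is the highest rank of the 3 susceptible sites, with Epha6 at 494 and Nrp1 at 648.

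Sema5a encodes a transmembrane semaphorin, the one ligand among the 8. Its site, higher after acute stress, lies near the middle of the gene, 251.5 kb from the start (chr15:32496151-32496550). The count was 20.9 and 20.0 after acute stress and 5.41 and 4.60 in controls, a mean of 20.5 ± 0.636 against 5.01 ± 0.573 (SD, n = 2 each). These libraries agreed closely within each group, and the pooled ratio of 36 acute stress to 12 control reads was 4.19 (95% interval 2.13 to 8.85). The log2 fold change in the authors' deposited table was 2.03 (adjusted p = 0.00811), and by that table's p the site ranks 71 among the 1014 acute sites. The other acute sites of the members rank from 223 (Ephb1) to 985 (Epha3).

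Nrp1 encodes neuropilin-1, a co-receptor of class 3 semaphorins and of vascular endothelial growth factor, so it is a gene of vessels as well as of neurons. Its site was lower in susceptible mice and lies 1.49 kb short of the end of the gene (chr8:128503851-128504125). The count was 3.26, 0 and 5.87 in susceptible mice and 11.9 and 11.8 in controls, a mean of 3.04 ± 2.94 (SD, n = 3) against 11.8 ± 0.127 (SD, n = 2). The control libraries were nearly equal, while the susceptible ones ran from no read to near 0.5 of the control level. The log2 fold change in the authors' deposited table was -1.96 (adjusted p = 0.00182). The log2 ratio of means was -2.86 without the third susceptible library and -1.37 without the second.

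**Figure D3:**
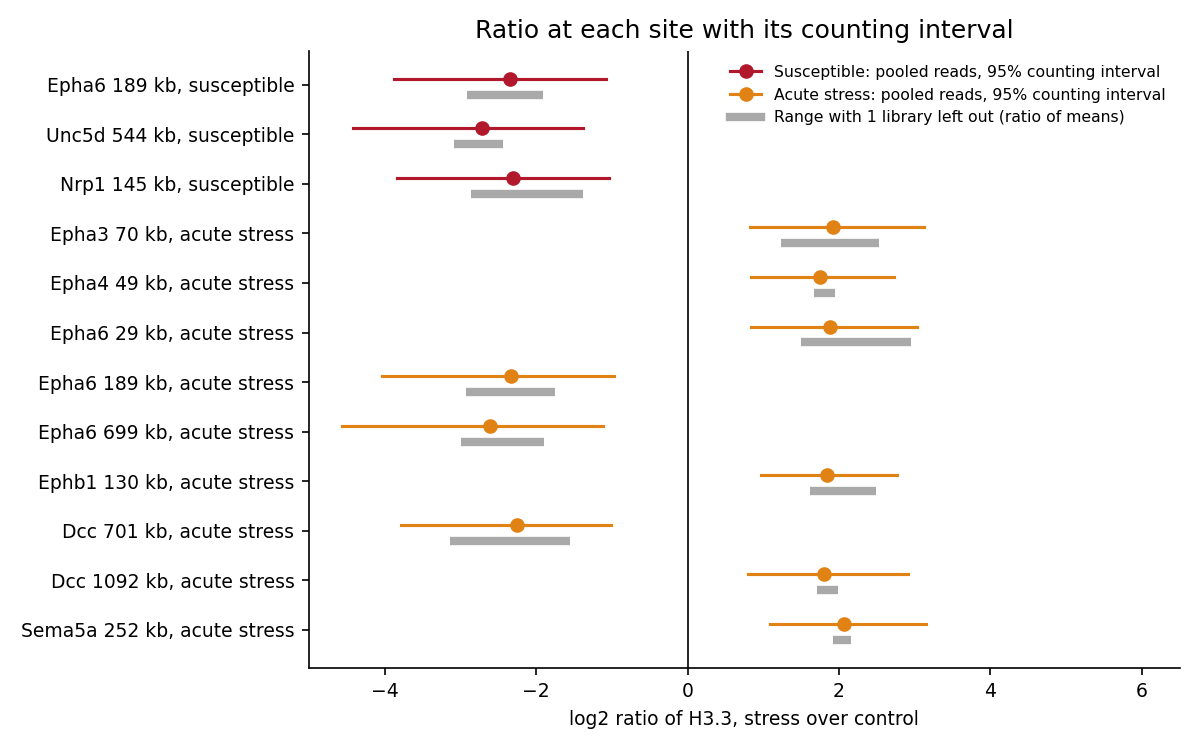
The log2 ratio of H3.3 in stress over control libraries at each site, from pooled reads with its exact 95% counting interval (points and thin lines), and the range of the log2 ratio of means when 1 library is left out (grey bars, without the 1 case in which no stress read remained). The 12 intervals lie on the side of their listed direction, which follows from the choice of sites by these same counts. Intervals of different sites overlap widely within each direction.

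Per length, the 6 higher sites are given here in order of their mean. After acute stress they held 4.35 to 5.71 normalised counts per 100 bp, with Ephb1 first (5.71 ± 1.44), then Dcc (5.27 ± 0.00870), Epha6 (5.12 ± 0.215), Sema5a (5.12 ± 0.159), Epha4 (4.93 ± 0.642) and Epha3 (4.35 ± 0.378, SD, n = 2 each). Every neighbouring pair in that order differed by less than the larger of its SDs, while Dcc, Epha6 and Sema5a each differed from Epha3 by more than the larger SD. An SD of 2 libraries can fall below counting error, as at Dcc with 18 and 12 acute stress reads. These values therefore do not establish a difference in level between the sites. In controls the same sites held 1.24 to 1.48 counts per 100 bp. The 3 lower acute sites held 0.633 to 1.13 per 100 bp after acute stress and 4.71 to 5.26 in controls. The 3 susceptible sites held 0.655 to 1.11 per 100 bp in susceptible mice and 4.09 to 4.31 in controls.

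The deposited fold changes of the higher sites all lay below that list's median. They ran from 1.74 to 2.04 on the log2 scale with a median of 1.92, beside a median of 2.20 over all 541 higher acute sites in the authors' deposited table. Their control means of 4.04 to 6.11 lay above the median of 3.27 over those sites, and their lengths of 325 to 425 bp above the median of 300 bp. The 3 lower acute sites had log2 fold changes of -2.89 to -2.14 beside a list median of -2.64, and the 3 susceptible ones -2.64 to -1.96 beside -2.42, all in the authors' deposited table.

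The authors' deposited table also gives an enrichment ratio per group, and the sources used here do not say what it is relative to. At the higher acute sites the ratio was at least 1 in acute stress mice at 5 of 6 and in controls at 3 of 6, counting those listed as infinite. Over all 541 higher acute sites that held at 85.0% in acute stress mice and 60.4% in controls, close to the shares here. Epha4 was the exception after acute stress, with 0.69 against 0.21 in controls. At the 3 lower acute sites the acute stress ratio was 0.13, 0.21 and 0.26, and the control ratio was infinite at both Epha6 sites and 0.57 at Dcc. In susceptible mice it was 1.44 at Epha6, 2.90 at Unc5d and 0.61 at Nrp1, against infinite, 1.53 and infinite in controls, so at Unc5d the ratio and the count went opposite ways. They did so at the 1092 kb site of Dcc too, where the ratio was 3.36 after acute stress and infinite in controls.

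Position along the gene was not used to choose the members. The 9 acute sites lay 29.4 to 1092 kb from the start, with a median of 188.7 kb, beside 56.8 kb over the 481 gene body sites of that list. At 100 kb or more lay 6 of these 9 and all 3 susceptible sites, beside 35.8% of acute and 38.7% of susceptible gene body sites. The members are long genes, from 146.9 kb in Nrp1 to 1098 kb in Dcc, and the gene length bounds this distance. As a share of the gene, acute sites lay 3.09% to 99.5% along (median 33.3%), and all gene body sites of the list had a median of 51.6%. The 3 susceptible sites lay 19.8% to 99.0% along (median 94.9%), beside a median of 51.9% over that list.

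Of the wider pathway, 110 genes in 8 lists of ligands, receptors and their signalling partners were looked up. Lower susceptible sites were found in 12 of them, higher acute sites in 9 and lower acute sites in 5. Among all 21900 protein-coding genes, 2.56% had a lower susceptible site, 1.05% a higher acute site and 1.09% a lower acute site. Long genes have more sites. Of the 1503 protein-coding genes at least as long as Nrp1, 18.9% had a lower susceptible, 6.45% a higher acute and 8.78% a lower acute site, and 43 of the 110 pathway genes are that long. Of these 43, 11 had a lower susceptible, 7 a higher acute and 5 a lower acute site. The 8 members are part of these counts and were chosen for their sites. Of the 102 genes that are not members, 9 had a lower susceptible, 3 a higher acute and 3 a lower acute site. Of the 35 long genes among these 102, 8 had a lower susceptible, 1 a higher acute and 3 a lower acute site. No pathway gene had a higher susceptible site, which 0.0822% of all protein-coding genes and 0.532% of the long ones had.

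Of 14 ephrin receptor genes 5 had a site, and of 8 ephrin genes, the ligands, 0 had one, beside 4.27% of all protein-coding genes with a site in either list. The receptor count rests on the choice of members, since 4 of the 5 are members and 1 of the other 10 receptor genes had a site. Of these receptor genes 7 are at least as long as Nrp1, and of the ephrin genes 1. The fifth receptor gene was Epha5, an ephrin-A receptor gene, with 2.13 ± 0.983 counts in susceptible mice (SD, n = 3) against 11.0 ± 1.27 in controls (SD, n = 2). In the netrin list, Neo1, which encodes the DCC relative neogenin, had 1.10 ± 1.91 in susceptible mice (SD, n = 3) against 9.85 ± 0.339 in controls (SD, n = 2). Dscam, a cell adhesion molecule that also binds netrin, was lower in susceptible mice as well, with 2 susceptible and 31 control reads.

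The semaphorin list had Sema6d (3.17 ± 0.201 against 13.0 ± 1.05) and Sema4b (2.63 ± 0.883 against 14.7 ± 1.22) lower in susceptible mice (SD, n = 3) than in controls (SD, n = 2). Sema3e, a secreted repellent, was lower after acute stress at 0.950 ± 1.34 against 11.9 ± 0.0495 in controls (SD, n = 2 each). The plexin gene Plxna2 was lower in susceptible mice, at 2.83 ± 1.82 (SD, n = 3) against 11.1 ± 0.141 in controls (SD, n = 2).

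Slit genes, which encode repellents read by Robo receptors, had 1 lower site each in Slit2 and Slit3, and no Robo gene had a site. Slit2 was at 1.59 ± 0.102 in susceptible mice (SD, n = 3) against 10.1 ± 0.0354 in controls (SD, n = 2). Slit3 was at 2.62 ± 2.36 after acute stress against 13.6 ± 0.651 in controls (SD, n = 2 each). Among signalling genes, Trio, which acts downstream of DCC, had 2 lower susceptible sites, and the focal adhesion kinase gene Ptk2 had 1. After acute stress the Slit-Robo effector gene Srgap1 had a lower site, on 1 acute stress and 30 control reads. Farp1 had a higher acute site, and so did Limk1, which encodes a kinase of the actin regulator cofilin. Limk1 was at 19.0 ± 1.38 after acute stress against 4.77 ± 3.96 in controls (SD, n = 2 each).

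**Figure D4:**
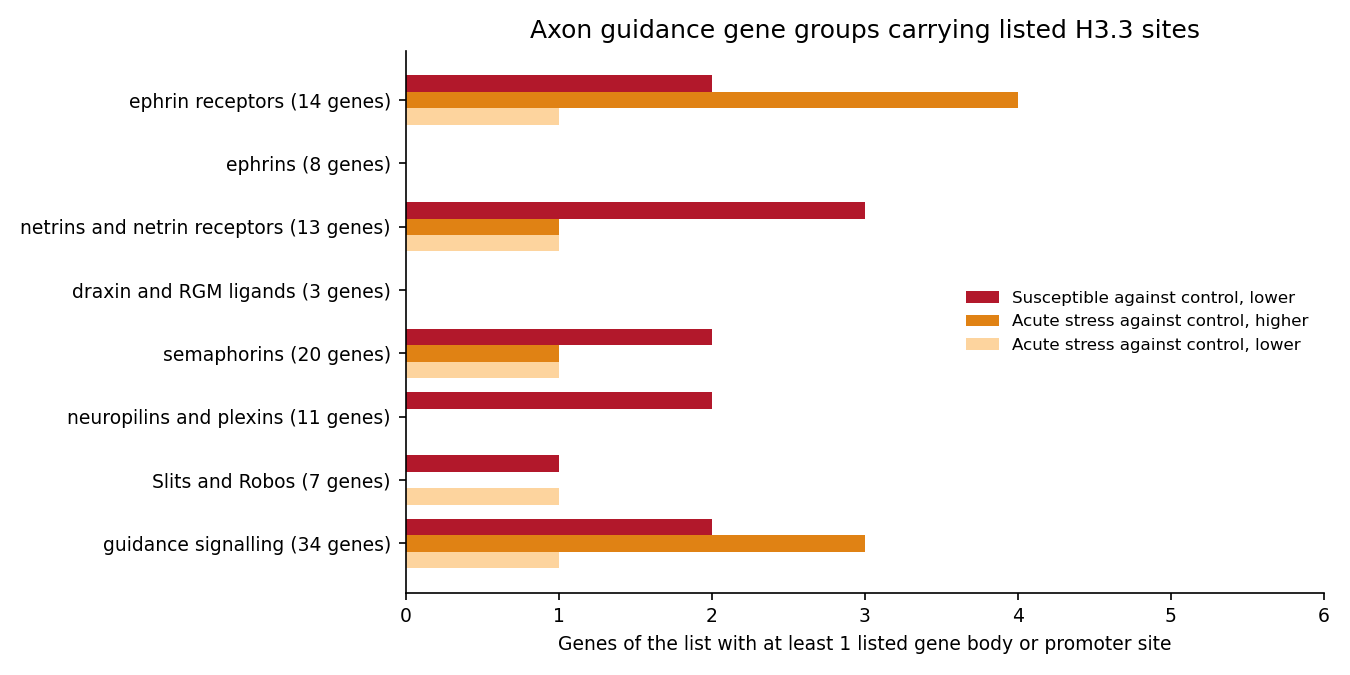
Number of genes in each of the 8 axon guidance lists with at least 1 listed gene body or promoter site, by comparison and direction (bars start at 0, list sizes in brackets, members included). Ephrin receptors have 2 genes with a lower susceptible site, 4 with a higher acute site and 1 with a lower acute site, and ephrins have none.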

How the data were processed

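The data are 2 deposited tables of differential H3.3 sites, susceptible against control and acute stress against control. Their names give diffReps, windows of 250 bp and a p threshold, and Bowtie2 2.2.0, SAMtools 0.1.19 and mm10 are in the submitters' processing notes. The sources used here do not state the test, the normalisation or any filter on reads. Per the file headers, each site has normalised read counts per library, a mean coverage signal per group, an enrichment ratio, a log2 fold change, a p-value and an adjusted p-value, all deposited by the authors.

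Means and SDs (Python 3.11.15, NumPy 2.4.6) were taken over the libraries in each cell. The value of 1 read in each library was recovered from the counts, which were whole multiples of it for 99.9% to 100% of values within 0.011. Pooled reads gave ratios with exact Clopper-Pearson 95% intervals (SciPy 1.17.1). Both steps were tested on simulated data. No test was run, since the members were chosen from these contrasts. With 2 or 3 libraries a group, an exact two-sided rank-sum test cannot go below p = 0.2 (susceptible) or 0.333 (acute). The members and gene lists were chosen with earlier results of these data known. The genes named are the members and those of the pathway and marker lists with a gene body or promoter site, except 1 that is counted but not reported here. Gene lengths are from RefSeq GRCm38.p6. Of 1041 genes with such a site, 936 matched a protein-coding RefSeq symbol. Alternatives changed the p threshold, genomic class, gene extent, low-value filter, overlap, pseudocount and libraries.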

Additional observations from a re-analysis of the deposited data

How the results depend on the processing

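The log2 ratios of the 12 sites kept their direction in 86 of 86 alternatives (pooled reads, pseudocounts of 0.5 and 1, each library left out), and 85 moved by less than the spread between libraries. The exception was Sema5a, at 1.84 with a pseudocount of 1. That spread combines the SDs of the same few libraries, so leaving 1 of them out is nearly bound to stay within it. At the Epha6 site at 698.9 kb, a move from -2.90 to -1.90 stayed within a spread of 2.05. The tally of moves is therefore no test of stability. Leaving out the first acute stress library left no acute stress read at the Epha6 site at 698.9 kb, so that case has no value. Stricter p-values changed the counts of sites. At p of at most 1e-05, 1 lower susceptible (Unc5d), 1 higher acute (Sema5a) and 0 lower acute sites were left. At an adjusted p of at most 0.01, 2 higher acute (Sema5a and Ephb1) and 0 lower acute sites were left, and at 0.001 there was 1 lower susceptible site. Counts with gene bodies only, RefSeq gene extents, a group mean of at least 10 or either overlap rule were equal to those reported. No paired analysis was possible because the values per library carry no replicate numbers.

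The sites hold few reads and were listed because they differ, so a direction kept under these settings is no test of stability. Total library depths and unlisted positions were not analysed here, so a member without a listed site in a comparison cannot be called unchanged.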

Other observations

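Genes that combine the 3 kinds of listing seen in Epha6, a lower susceptible site with a lower and a higher acute site, were few. Besides Epha6 there were 3 protein-coding genes, the cadherin gene Cdh4, the cAMP phosphodiesterase gene Pde4d and the splicing regulator gene Rbfox1, named after their values were seen. Sites of both directions in the acute list alone, as in Dcc, were found in 12 protein-coding genes, none of the others in an axon guidance list. Of 452 protein-coding genes with an acute site, 4 had 3 or more, namely Asic2, Btaf1, Epha6 and Rbfox1. These counts were not adjusted for gene length, and long genes have more sites. By length, Epha6 ranks 61 and Dcc 47 among the 21900 protein-coding genes.

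Besides the site past the end of Dcc, 7 other listed sites lay within 500 kb of a member. An intergenic site 47.1 kb from Epha3 was lower in susceptible mice, at 3.26, 3.31 and 2.94 counts against 16.5 and 13.4 in controls. Lower was the direction of 97.6% of sites in that list. The site inside Epha3 belongs to the other comparison, so the 2 directions cannot be set against each other. An intergenic site 124 kb from Ephb1 was higher after acute stress, at 11.4 and 14.3 counts against 3.24 and 1.97 in controls. Sema5a had 2 higher acute sites in its surroundings, 1 of them in Sdc2, which encodes the proteoglycan syndecan-2 and held 13.6 ± 0.990 counts against 2.61 ± 0.898 in controls (SD, n = 2 each). These 3 sites near Ephb1 and Sema5a had the direction of the site inside the gene, in a list with 53.4% of sites higher. The remaining sites were 1 higher acute site 20.1 kb from Epha6, 1 lower acute site 279 kb from Dcc and 1 lower susceptible site 309 kb from Unc5d. Epha6 and Dcc themselves hold acute sites of both directions. Whether neighbouring sites share their direction more often than others was not tested.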
